A study of Caenorhabditis elegans with 2 samples.

Results

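EFL-1 was found at the starts of all 7 C. elegans genes that encode the MCM replicative helicase and its activator MCM-10, namely mcm-2, mcm-3, mcm-4, mcm-5, mcm-6, mcm-7 and mcm-10. These 7 of 19973 protein-coding genes on the nuclear chromosomes were taken by name. The series held 1 group, hermaphrodite L1 larvae of the wild-type strain N2 grown at 26 °C, in 2 biological replicates from separate biosamples, and no other condition, genotype or treatment. Chromatin was taken from whole animals with an antibody against EFL-1, so a peak cannot be assigned to a tissue, and fewer bound cells cannot be told apart from less binding per cell. The age of the larvae within the stage is given as unknown.

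The MCM proteins form a ring-shaped helicase. It is loaded inactive onto DNA at origins by the origin recognition complex with CDC-6 and CDT-1, and becomes the moving replicative helicase when CDC-45 and the GINS complex join it. MCM-10 is not part of the ring and acts in its activation. EFL-1 is an E2F transcription factor, and with DPL-1 and the pocket protein LIN-35 it belongs to the DREAM complex, whose subunit LIN-54 binds a second DNA element, the cell cycle genes homology region (CHR). Genes of the MCM ring are classical E2F targets in mammals.

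Every member's peak held both an E2F consensus and a CHR element within 100 bp of its summit. In every case a CHR element stood a short way downstream of an E2F match, towards the gene. The sequences around the summits of 6 members are shown because this arrangement can be read from them directly. They run 5′ to 3′ on the strand of the gene, with each match in capitals. The E2F forms searched were TTCCCGC and TTCGCGC with TTGCCGC and TTGGCGC, and the CHR forms were TTTGAA and TTCGAA, on either strand within 100 bp of the summit. A match on the other strand reads here as its reverse complement, such as GCGCGAA or GCGCCAA for E2F and TTCAAA for CHR. TTCGAA reads the same on both strands and was counted once. The stretches were read from the RefSeq sequence of the assembly WBcel235 (ce11) at chrII:12006786-12006986, chrV:15059656-15059807, chrIII:4291370-4291542, chrIII:9794069-9794269, chrV:4346906-4347106 and chrIII:11317243-11317443, in that order. Those of mcm-2, mcm-3 and mcm-5 are on the minus strand, and those of mcm-3 and mcm-5 were shortened where an exon of a neighbouring gene begins.
mcm-2: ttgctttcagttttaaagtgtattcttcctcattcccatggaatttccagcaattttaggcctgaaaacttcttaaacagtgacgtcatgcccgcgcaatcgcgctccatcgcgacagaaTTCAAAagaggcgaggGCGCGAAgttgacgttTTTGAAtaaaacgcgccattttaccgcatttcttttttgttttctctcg
mcm-3: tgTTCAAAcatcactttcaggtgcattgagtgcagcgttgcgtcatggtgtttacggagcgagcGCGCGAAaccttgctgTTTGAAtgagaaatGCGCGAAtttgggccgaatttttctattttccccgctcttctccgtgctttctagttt
mcm-5: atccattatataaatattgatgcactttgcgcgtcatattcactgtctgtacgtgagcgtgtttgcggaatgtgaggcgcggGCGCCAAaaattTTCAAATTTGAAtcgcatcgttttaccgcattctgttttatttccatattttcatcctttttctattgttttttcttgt
mcm-6: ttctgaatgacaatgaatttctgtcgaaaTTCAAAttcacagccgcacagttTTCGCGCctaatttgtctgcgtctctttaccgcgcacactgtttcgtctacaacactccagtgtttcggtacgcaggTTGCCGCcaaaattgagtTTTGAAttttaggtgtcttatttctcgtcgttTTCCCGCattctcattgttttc
mcm-7: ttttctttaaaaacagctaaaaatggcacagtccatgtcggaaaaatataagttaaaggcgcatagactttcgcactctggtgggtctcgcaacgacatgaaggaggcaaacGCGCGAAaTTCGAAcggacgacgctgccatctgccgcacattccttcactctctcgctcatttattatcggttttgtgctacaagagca
mcm-10: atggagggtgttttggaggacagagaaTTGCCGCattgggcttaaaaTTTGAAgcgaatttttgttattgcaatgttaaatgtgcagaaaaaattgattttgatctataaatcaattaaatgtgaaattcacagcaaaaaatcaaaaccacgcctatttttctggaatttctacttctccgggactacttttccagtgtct

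In mcm-2 and mcm-3 the reverse complement of TTCGCGC was followed after 9 bases by TTTGAA. In mcm-5 the reverse complement of TTGGCGC was followed after 11 bases by TTTGAA, which directly adjoins a copy of the same element on the other strand. The mcm-6 pair joined TTGCCGC to TTTGAA with 11 bases between them. In mcm-7 a single base separated the reverse complement of TTCGCGC from TTCGAA, and no other match to either motif lay in the region. The mcm-10 pair, TTGCCGC and TTTGAA, had 13 bases between its parts. The peak of mcm-4, whose sequence is not shown, held 4 E2F matches and 3 CHR elements. Its E2F match nearest the summit was followed by TTTGAA after 3 bases and by TTCGAA after 9. Thus the gap ran from 1 to 13 bases, and in mcm-2, mcm-3 and mcm-4 a gap of 9 occurred with the same E2F form in the same orientation, followed by TTTGAA in mcm-2 and mcm-3 and by TTCGAA in mcm-4.

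Each ring gene had a pair on the gene side of the summit, whereas that of mcm-10 lay on the far side. Counted from the summit, the pair began 36 bp towards the gene in mcm-2, 13 bp in mcm-3, 10 bp in mcm-5, 29 bp in mcm-6 and 12 bp in mcm-7. One pair of mcm-4 began 13 bp towards the gene and another 56 bp away from it. The middle of the nearest E2F match was 13 bp from the summit in mcm-5, 15 bp in mcm-7, 16 bp in mcm-3 and mcm-4, 32 bp in mcm-6 and 39 bp in mcm-2. In mcm-10 it was 70 bp away, on the side away from the gene. The form TTCGCGC occurred in 5 of the 7 peaks, all but those of mcm-5 and mcm-10, in 10.7% of the 838 other promoter peaks ranked at or above mcm-6, in 6.31% of all 2394 other promoter peaks and at 300 of 19966 other gene starts.

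**Figure D1:**
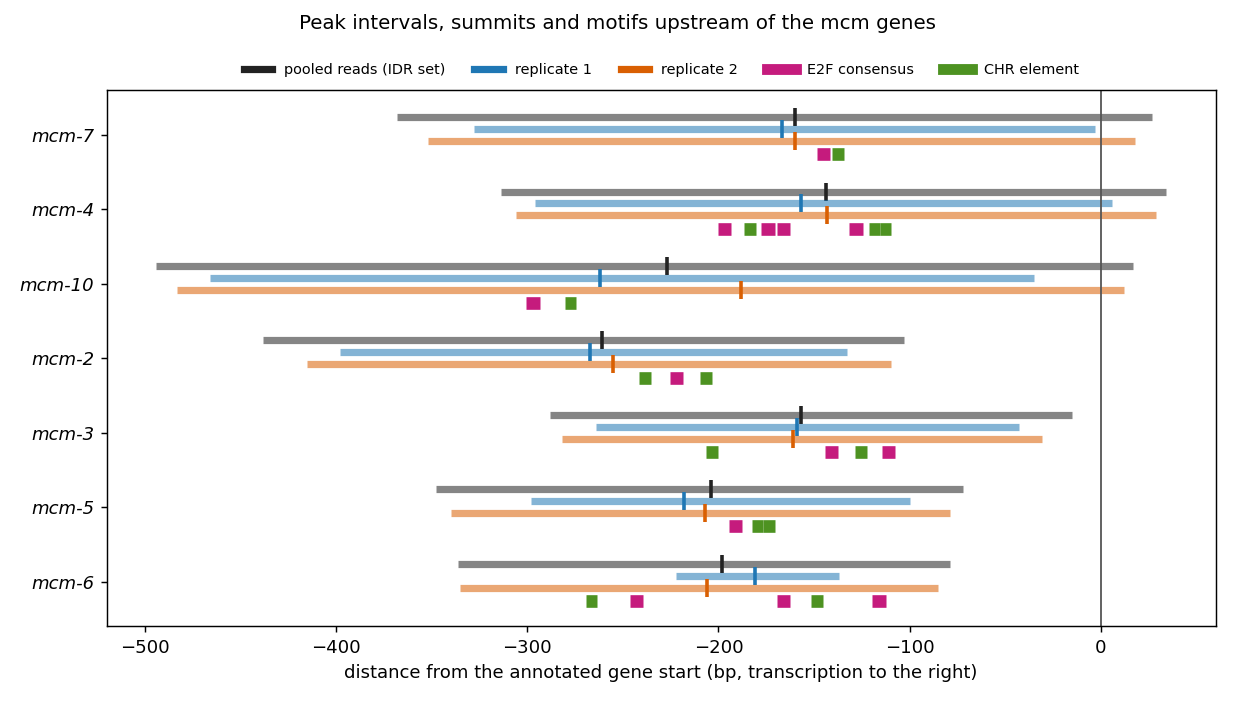
Peak intervals (bars), summits (ticks) and motif matches (blocks) against distance from the annotated gene start in bp, for the pooled reads and both replicates, with genes in order of pooled score. All summits lie 143 to 267 bp upstream of the start, and the peak of mcm-10, 512 bp wide in the pooled list, is the widest of the 7.

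The E2F consensus was less common elsewhere, while the CHR element alone was frequent everywhere. The E2F consensus was in 7 of 7 member peaks, in 19.5% of the 2394 other promoter peaks and in 6.89% of regions of the same 201 bp at the 19966 other gene starts. Those regions were centred 198 bp upstream of each start, the median position of the members' summits. The CHR element was in 7 of 7 member peaks, 52.2% of other promoter peaks and 56.4% of other starts. Among the 838 other promoter peaks ranked at or above mcm-6, the lowest member, 29.5% held the E2F consensus and 67.5% a CHR element. An E2F match followed on the gene's strand by a CHR element within 20 bases was in 7 of 7 member peaks, against 55 of 2394 other promoter peaks (2.30%) and 87 of 19966 other starts (0.436%). Among the 838 like-ranked peaks it was in 27 (3.22%). Members were read on the strand of the mcm gene, but each other peak on that of the gene with the nearest start. By the latter rule mcm-3 would be read on the strand of C25D7.15, an opposite-strand gene whose start is nearer, and there it held no pair. The pair was defined after the motif positions had been seen, so these shares describe the members and carry no test. A match in sequence is not a measured binding site.

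The GC content of the member regions ran from 34.3% at mcm-10 to 45.8% at mcm-4 and mcm-7. The quartiles over promoter peaks were 35.3% and 44.7%, so that these 3 members lay just outside them and the other 4 within. The arrangement in the opposite sense, with the CHR element on the other strand before the E2F match, was in 3 of the 7 member peaks, those of mcm-2, mcm-4 and mcm-6. It was in 2.67% of other promoter peaks, 5.73% of the 838 ranked at or above mcm-6 and 0.541% of other gene starts. Among those 838 it was thus more common than the pair towards the gene (3.22%).

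**Figure D2:**
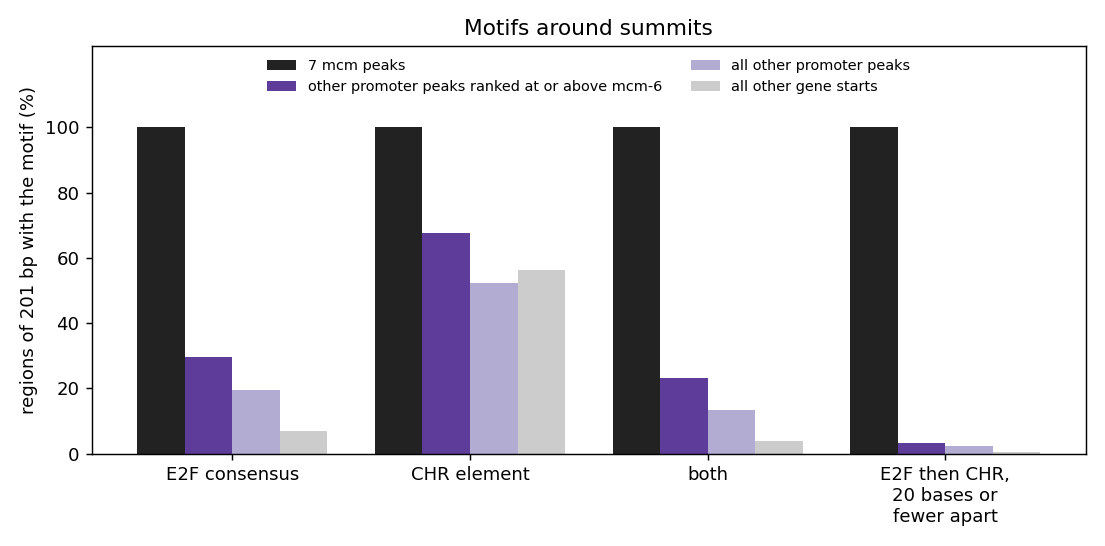
Share of 201 bp regions, in percent, that hold each motif, for the 7 member peaks, the other promoter peaks ranked at or above mcm-6, all other promoter peaks and all other gene starts. The members reach 100% in each class, while the pair is found in 3.22%, 2.30% and 0.436% of the other regions. For the pair, members are read on the strand of the mcm gene and other peaks on that of the gene with the nearest start.

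All 7 members had a peak of the set that the authors thresholded by the irreproducible discovery rate (IDR), a measure of how alike peaks rank in replicates. A gene was called bound when that set had a summit from 500 bp before its annotated start to 200 bp after it. Of all 19973 protein-coding genes, 15.2% met this rule. The IDR set held 4835 peaks on ce11, of which 2401 lay at such a start, and its peaks were the 4835 highest of the pooled list. Each value below is the authors' peak score, whose scale is not stated and which is comparable only within 1 list. Read depth is unknown from these lists. The lists held 28817 peaks for replicate 1 and 30000 for replicate 2, of which the lowest are background.

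The ring gene mcm-7 had the highest score of the 7. It scored 765 in replicate 1, where it ranked 241, and 1680 in replicate 2, where it ranked 189. With pooled reads it scored 2439 and ranked 204 of 4835. Its peak (chrV:4346798-4347193) had its summit 160 bp upstream of the gene, which lies at chrV:4347166-4349768 on the plus strand. In both replicates it led the members.

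The ring gene mcm-4 and the activator gene mcm-10 came next. The peak of mcm-4 scored 609 in replicate 1 and 1237 in replicate 2, with ranks 322 and 287. Pooled, it scored 1843 and ranked 299. The gene lies at chrI:2318291-2321817 on the minus strand, and the summit was 144 bp upstream of it. For mcm-10 the score was 604 in replicate 1 and 977 in replicate 2, with ranks 327 and 394. Its pooled score was 1576, at rank 362. The gene lies at chrIII:11317570-11326664 on the plus strand. In replicate 1 the scores of both genes were almost equal, while in replicate 2 that of mcm-4 was 1.27 times that of mcm-10.

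The ring gene mcm-2 scored 381 in replicate 1 and 876 in replicate 2, at ranks 537 and 436. Its pooled peak (chrII:12006728-12007063) scored 1253 and ranked 469. The summit lay 261 bp upstream of the gene (chrII:12001509-12006625, minus strand), the farthest of the members. The ring gene mcm-3 scored 272 in replicate 1 and 626 in replicate 2, at ranks 748 and 600. Its pooled peak (chrV:15059614-15059887) scored 900 and ranked 640, with its summit 157 bp upstream of the gene (chrV:15056719-15059599, minus strand).

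The ring genes mcm-5 and mcm-6 had the lowest scores. That of mcm-5 was 163 in replicate 1 and 435 in replicate 2, at ranks 1157 and 839. Its pooled peak (chrIII:4291338-4291614) scored 597 and ranked 935, with its summit 204 bp upstream of the gene (chrIII:4288264-4291266, minus strand). The peak of mcm-6 scored 122 in replicate 1 and 379 in replicate 2, at ranks 1459 and 942. Pooled (chrIII:9794031-9794288), it scored 502 and ranked 1087, with its summit 198 bp upstream of the gene (chrIII:9794367-9798644, plus strand). Even mcm-6 exceeded 64.8% of all promoter peaks, and mcm-7 exceeded 92.3%. The median score of the members was 1253, against 293 over all 2401 promoter peaks (quartiles 131 and 782). Scores as high as that of mcm-6 or higher were found at 1154 of the 19973 genes.

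The order of the 7 genes by score was the same in both replicates and in the pooled list. From top to bottom the score of mcm-7 was 6.27 times that of mcm-6 in replicate 1 and 4.43 times in replicate 2, a mean log2 difference of 2.40 ± 0.35 (SD, n = 2). Of the 6 neighbouring pairs in the order, mcm-4 and mcm-10 did not differ beyond the spread between replicates, with a mean log2 difference of 0.18 ± 0.23 (SD, n = 2). For mcm-10 over mcm-2 the difference of 0.41 ± 0.36 was barely larger than its spread. In the other 4 pairs the mean log2 difference ran from 0.31 for mcm-5 over mcm-6 to 0.63 for mcm-3 over mcm-5, with an SD of at most 0.15. Only 2 replicates stand behind each of these values, and the pairs were ordered by the pooled reads of those same replicates.

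**Figure D3:**
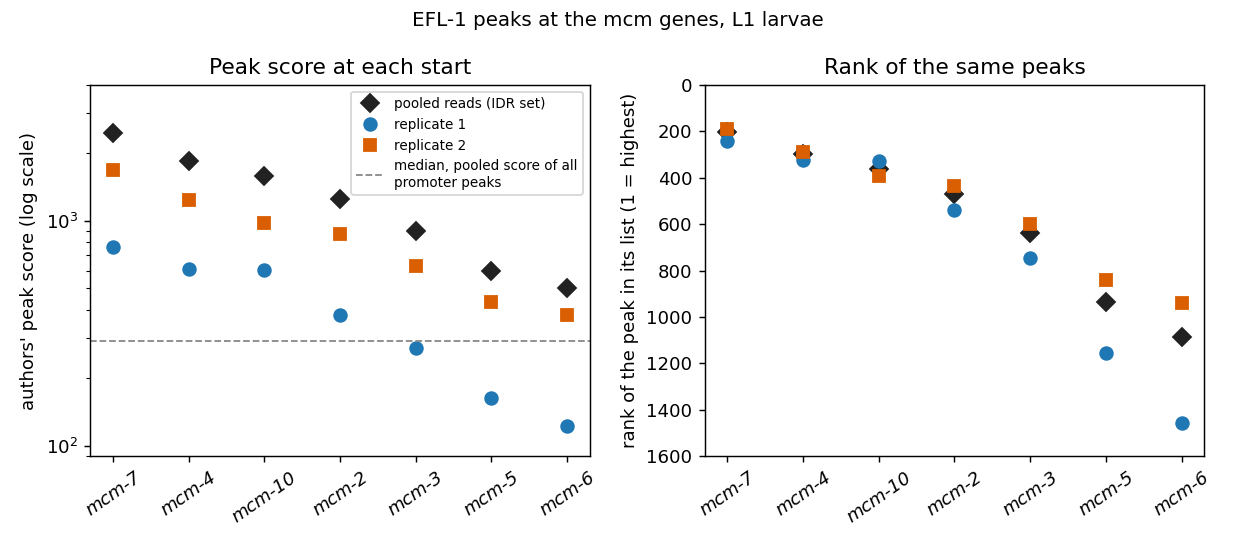
Authors' peak score on a log scale (left) and rank of the same peak in its list (right) for the pooled reads and each replicate, with the genes ordered by pooled score. The order is the same in all 3 lists, and the ranks of the replicates lie farthest apart at mcm-6, at 1459 in replicate 1 and 942 in replicate 2.

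Replicate 2 gave higher scores than replicate 1 at every member, as it did at 97.4% of the 4718 IDR peaks with a summit within 100 bp in both lists. The median ratio over those peaks was 1.94 (quartiles 1.58 and 2.40). The ratio was 3.11 at mcm-6 and 2.68 at mcm-5, where the upper quartiles among the peaks within 50 ranks were 2.16 and 2.20. It was also above the upper quartile of like-ranked peaks at mcm-2 (2.30), mcm-3 (2.30) and mcm-7 (2.19), so at 5 of the 7, and within the quartiles at mcm-4 (2.03). At mcm-10 it was 1.62, below the lower quartile of 1.69. The interval of mcm-6 was 86 bp wide in replicate 1 and 251 bp in replicate 2, the largest proportional change in width among the members.

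Summit positions differed little between replicates except at mcm-10. The summits of both replicates lay 2 bp apart at mcm-3, 7 bp at mcm-7, 11 bp at mcm-5, 12 bp at mcm-2, 14 bp at mcm-4 and 25 bp at mcm-6. The median over all matched IDR peaks was 12 bp. At mcm-10 they lay 74 bp apart, 262 bp upstream of the start in replicate 1 and 188 bp in replicate 2, a gap reached by 4.45% of matched peaks. With 512 bp, the mcm-10 peak was among the widest 1.08% of promoter peaks, whose median width was 334 bp. Whether it joins more than 1 site was not tested. The E2F match of mcm-10 lies from 300 to 294 bp upstream of the start, closer to the summit of replicate 1 than to that of replicate 2.

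Most of the peaks lay in the start window of the mcm gene alone, as most promoter peaks lay in that of a single gene. Of the 7 peaks, 6 lay in the start window of no other gene of any type. Counting protein-coding genes only, 73.0% of all promoter peaks lay in the window of a single gene. The exception was mcm-3, whose summit lay 52 bp upstream of C25D7.15, a protein-coding gene that starts 209 bp away on the opposite strand. The summit of mcm-10 fell in an intron of teg-1, which runs over the start of mcm-10 on the opposite strand, and it lay 888 bp inside that gene from its start. The other 6 summits lay in no annotated gene. Opposite-strand genes that start farther upstream were R10E11.9, 725 bp from mcm-6, and hpo-18, 741 bp from mcm-7, and both start windows missed the summit.

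The starts of mcm-4 and mcm-5 followed closely on another gene of the same strand, as in a possible operon, and both were bound. The gene Y39G10AR.32 ends 208 bp upstream of mcm-4, and the summit lay 64 bp beyond its end. The gene nth-1, which encodes a DNA glycosylase of base excision repair, ends 277 bp upstream of mcm-5, with the summit 73 bp beyond its end. Both summits thus lay in the gap between the genes.

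Each member had 1 summit in its window in the IDR set, the pooled list and each replicate list. Over the gene body and 2000 bp upstream, the next highest pooled score was at most 27.1 at mcm-2, mcm-3, mcm-4, mcm-5 and mcm-10, under the lowest IDR score of 59.6. No other pooled summit was listed there for mcm-6. At mcm-7 a second IDR peak with a score of 70.2 lay 1298 bp upstream, at rank 4392, and the score at its start was 34.8 times as high. The annotated 5′ leader of the members was short, with the first coding base 0 to 32 bp downstream of the start. Many worm messages are trans-spliced, so an annotated start can lie downstream of the site of initiation.

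All 7 members were bound under each of the 7 other rules tried. A narrower window, from 300 bp before the start to 100 bp after it, bound 11.7% of all genes, and a wider one, from 1000 bp before to 500 bp after, bound 19.1%. The 2417 highest peaks of the IDR set bound 10.4% of all genes. The 4835 highest peaks of replicate 1 alone bound 14.8% and those of replicate 2 alone 15.3%. Counting any overlap of the peak with the window gave 16.7%, and using the start of any transcript gave 16.3%. The wider window, the overlap rule and the start of any transcript can only add genes, so they could not lose a member.

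The genes listed for steps before and at the fork were mostly bound too. Of those listed for removal of the helicase, 2 of 8 were bound. With a window from 1000 bp before the start to 500 bp after it, 4 of 8 were. Of 37 names listed by role, 35 matched a gene name of the annotation used. The names cdc-45 and sld-3 did not, so binding at genes for these proteins was not examined. Bound were 25 of the 35 (71.4%), against the 15.2% of all genes. Their median score was 1571, against 1253 for the mcm genes, but many of these peaks were shared with another protein-coding gene, as counted below.

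Of the 8 genes of origin recognition and helicase loading, 6 were bound. The highest scores were at orc-5 (3726) and orc-3 (1571), both for origin recognition subunits, and at the loading factor gene cdc-6 (1283). The peak of orc-5 was shared with cyb-1 and that of cdc-6 with acin-1, so these 2 scores cannot be assigned to a single gene. The origin recognition gene orc-2 and gmn-1, the gene of the CDT-1 inhibitor geminin, were not bound. In the pooled list their starts scored 14.3 and 19.5. Both start shortly after a gene on the same strand, but so does orc-4 of the same list, which was bound with a score of 113. A link of this position to binding was not tested.

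Of the 9 matched genes of helicase activation and its partners, 8 were bound. They were led by dnsn-1, the gene of the DONSON homologue that aids helicase assembly (2813), ctf-4, which encodes a protein that links helicase and polymerase (2793), and the GINS gene psf-3 (2335). The peak of dnsn-1 was shared with C24H12.4 and that of ctf-4 with eef-1G. A further GINS gene, sld-5, had no summit at its start in any of the lists. Of the 10 genes listed for primase, polymerases and the fork, 9 were bound. They include polq-1, listed as a polymerase gene without a role at the fork being shown here. Its score was the lowest of the list (516), and its peak was shared with him-10. The highest were clsp-1, the gene of the checkpoint mediator claspin (5892), pcn-1, that of the sliding clamp (4069), and tim-1, that of a fork protection factor (3531). The peak of clsp-1 was shared with eef-2 and that of tim-1 with Y75B8A.23. The polymerase epsilon subunit gene pole-2 was not bound, and its start was listed only in replicate 2, with a score of 8.51.

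Of the 8 genes of helicase unloading, 2 were bound. The AAA ATPase gene cdc-48.1 had the second highest peak of the whole IDR set, with a score of 14939, and cul-2, which encodes the cullin of the ligase that marks MCM-7, scored 139. Its partner lrr-1, the substrate receptor of that ligase, had no summit at its start in any list. The ATPase gene cdc-48.2 scored 16.6 and the cofactor genes ufd-1 and ubxn-3 scored 40.1 and 11.8 in the pooled list, all under the threshold. The cofactor genes npl-4.1 and npl-4.2 had no summit. Their start windows are identical at 700 of 701 bases, so reads there may not be placed uniquely, and the effect of that was not tested. Of the 10 unbound related genes, 5 start within 500 bp downstream of a gene on the same strand, as did 1 of the 25 bound ones. So did 2 of the 7 mcm genes, all of which were bound. The share over all genes was not counted, and a link of this position to binding was not tested.

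The E2F and CHR pair was not common to all related genes. Among the 25 bound related genes, 16 peaks held the E2F consensus, 17 a CHR element and 7 the pair, against 7, 7 and 7 of the 7 mcm peaks. Over the 2394 promoter peaks other than those of the mcm genes, the shares were 19.5%, 52.2% and 2.30%. Over the 838 of them ranked at or above mcm-6 they were 29.5%, 67.5% and 3.22%. The CHR count of the related genes was thus near the share of these like-ranked peaks, while their E2F and pair counts were above it. The 7 with the pair were sld-2, mus-101, cdc-7, pri-2, pcn-1, tim-1 and clsp-1, and none was a gene of origin recognition and loading or of unloading. Of the 25, 14 shared their peak with another protein-coding gene, against 1 of the 7 mcm genes.

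**Figure D4:**
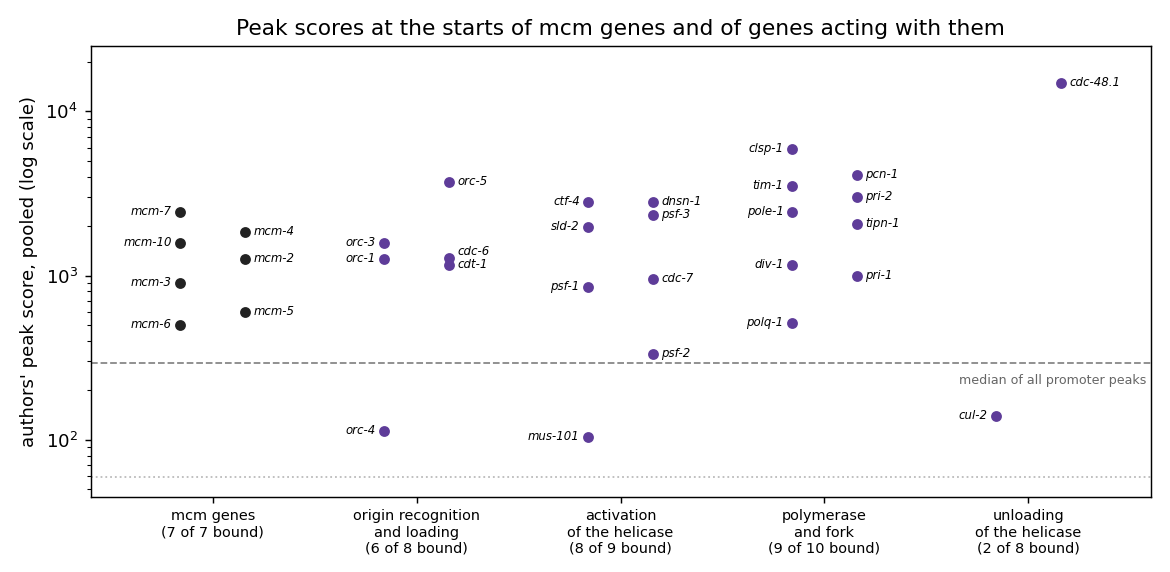
Authors' peak score in the pooled list on a log scale for the 7 mcm genes and for the bound genes of 4 related lists, each gene a labelled point, with the number bound under each list. The dashed line is the median over all promoter peaks (293) and the dotted line the lowest score of the IDR set (59.6). The mcm genes stand at 502 to 2439.

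The genes whose peaks were most like those of each member were found from 3 scores, pooled and in both replicates, by the smallest value of the largest log2 difference, among 2979 bound genes. For mcm-5 it was ran-1, the gene of the Ran GTPase of nuclear transport, within 0.01 on the log2 scale. For mcm-10 it was cel-1, which encodes the mRNA capping enzyme, also within 0.01. They were npp-5, a nuclear pore gene, for mcm-2 (0.05), aars-2, an alanyl-tRNA synthetase gene, for mcm-3 (0.03), F28F8.9 for mcm-4 (0.03), fbxa-128 for mcm-6 (0.07) and alh-9, an aldehyde dehydrogenase gene, for mcm-7 (0.04). With 3 values a gene, likeness says only that these peaks stood at like heights.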

How the data were processed

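EFL-1 ChIP-seq peaks of 2 biological replicates of whole L1 larvae were used. Per the file record deposited with the samples, each replicate list and the list of pooled reads hold peaks and background called with a control alignment, and the authors derived the IDR set from these 3 lists. Which aligner and peak caller were run, and their versions, is not given in the sources used here. The peak score is column 7 as the authors deposited it, on an unstated scale, so scores were compared only within a list or as ratios between replicates beside the ratio of all peaks. Lists on ce10 and the control were not analysed here.

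Summits were placed against Ensembl release 115 gene starts on WBcel235 (ce11), which equal the RefSeq starts for all 7 members. All peaks end within the lengths of its chromosomes. Replicate summits were matched within 100 bp. Motifs were searched with Python 3.11.15 in the RefSeq genome. The calling of summits in start windows and the search for E2F forms were first tested on simulated cases. Replicate matching and the searches for the CHR element and the pair were not.

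The members, the related lists and the rule for named genes (all members, genes that share their peaks, the 3 highest bound and every unbound gene of each related list, and the most alike gene of each member) were chosen with earlier results of these data known. The E2F and CHR pair was defined after the sequences were seen, and the 7 related genes that hold it were named then. With 1 group, no test between conditions was possible, and all results are descriptions.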

Additional observations from a re-analysis of the deposited data

How the results depend on the processing

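The count of 7 bound members was the same under all 7 alternatives, but not all of these could change it. The wider window, the overlap rule and the start of any transcript only add genes, so they could not lower the count. The outcomes for the narrower window and the 2417 highest peaks follow from the summit positions and ranks already given. In the related lists, 3 of the 4 counts stayed within 1.5 times under each alternative. The count for unloading was 2, but 4 with the wider window and 1 with the higher-scoring 2417 peaks. The score of every member was the same under the 5 alternatives that used the IDR set, because each of them read the same peak, so this is no check of the score. With 1 replicate left out, the rank of every member shifted, over 189 to 241 for mcm-7, 287 to 322 for mcm-4, 327 to 394 for mcm-10, 436 to 537 for mcm-2, 600 to 748 for mcm-3, 839 to 1157 for mcm-5 and 942 to 1459 for mcm-6. The summit position shifted most at mcm-10, from -262 to -188 bp, and at mcm-6, from -206 to -181 bp. It ran from -157 to -143 bp for mcm-4, from -267 to -255 bp for mcm-2, from -218 to -207 bp for mcm-5, from -167 to -160 bp for mcm-7 and from -161 to -159 bp for mcm-3. Within 50 bp of the summit, the E2F consensus was in 6 of the 7 member peaks and a CHR element in 5. Within 200 bp each was in all 7. The E2F and CHR pair, in 7 peaks within 100 bp of the summit, was in 4 within 50 bp, since those of mcm-2, mcm-6 and mcm-10 extend farther out. It was in 4 when at most 10 bases were allowed between the motifs, since the gaps at mcm-5 and mcm-6 are 11 bases and that at mcm-10 is 13. These settings of the pair were chosen after seeing the data. No paired analysis was possible because the series has 1 group. Read numbers are unknown, so no counting error could be given for a score, and a gene listed as unbound may hold binding under the detection limit of these lists.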

Other observations

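All 7-letter words in the 201 bp around the members' summits were counted, reading both strands, after the sequences had been seen. In at least 5 of the 7 regions there were 3 such words. The first was TTCGCGC, one of the E2F forms, in 5 members, 6.31% of the 2394 other promoter peaks and 300 of the 19966 other gene starts. TTTGAAT, a CHR element with a further base, was in 5 members, in 17.3% of the 2394 other promoter peaks and in 16.5% of the 19966 other gene starts. The last, CCGCATT, was in 5 members (mcm-2, mcm-4, mcm-5, mcm-6 and mcm-10), in 2.42% of the other promoter peaks and in 1.88% of the 19966 other gene starts. It read on the strand of the gene in all 5. At mcm-2, mcm-4 and mcm-5 it lay nearer the gene than the pair, beginning 186, 95 and 157 bp upstream of the start, and there TTACCGC overlapped it from the far side. At mcm-6 and mcm-10 CCGCATT overlapped an E2F match, beginning 116 and 297 bp upstream. TTACCGC, picked from 5 words found in 4 members, was in 1.42% of other promoter peaks and 0.796% of other gene starts. Its copy at mcm-6 began 220 bp upstream, apart from CCGCATT. What binds these words, if anything, was not measured.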
